A study of Platynereis dumerilii with 97 samples.

Results

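The late trochophore of Platynereis dumerilii was examined by comparing 6 embryos labelled 37, 38, 39, 40, 41 and 42 h after fertilization with 6 embryos labelled 31, 32, 33, 34, 35 and 36 h. These 12 embryos were chosen by their labelled age alone, from a series of 97 libraries that follows this marine annelid from cleavage to the segmented larva. Each library held the RNA of 1 whole embryo, reared at 18 °C and frozen on its own, and was made by CEL-Seq, a method that reads the 3' ends of polyadenylated RNA after linear amplification by in vitro transcription. Every embryo had an hour of its own, so the spread inside a window mixes the progress of development with variation among individuals. Eggs came from pairs of worms mated in several containers, and the labels do not say which embryos shared parents. No embryo was treated, and no strain or genotype is given.

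The trochophore is the swimming, roughly spherical larva of many annelids and molluscs. It moves with a belt of ciliated cells, the prototroch, and carries a sensory apical organ at its top. That of Platynereis lives on yolk laid down in the egg. In Platynereis the late trochophore precedes the metatrochophore, in which segments and the chitin bristles of the trunk take shape and in which muscle and nerve cells differentiate. The files list transcripts by identifier and do not pair these with gene names or sequences, so no function is assigned to any transcript named here, and no marker could be used to check the labelled stage.

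Transcript totals ran from 464284 to 1403309 counts per embryo, the highest in the embryo labelled 42 h and the lowest in that labelled 34 h. At these totals 1 count was worth between 0.713 and 2.15 CPM (counts scaled by the library total), and a value of 0 allows up to 3 counts, or 2.14 to 6.46 CPM, counting error only. The CPM levels given below carry a further scaling factor for each library (TMM), so these limits are not in quite the same unit. The table held 10908 transcripts, of which 249 had no count in any of the 12 embryos, and no pair of the 12 was identical. All 12 belong to the first 50 numbered embryos, which share a library make-up. A library of a later window, labelled 48 h, stood apart from its neighbours, and results that rest on it are given with and without it.

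The 12 embryos lay in the order of their labelled hours between the profiles of the flanking windows. For each embryo the Pearson correlation of its log2 CPM with the mean profile at 25 to 30 h (n = 6) was subtracted from that with the mean profile at 43 to 51 h (n = 9), over 7621 transcripts, so that a higher value means a profile more like the later window. None of the 12 embryos entered these reference profiles. From 31 to 36 h the differences were -0.172, -0.104, -0.084, -0.053, -0.039 and -0.0031, and from 37 to 42 h they were 0.020, 0.013, 0.064, 0.102, 0.128 and 0.161. The windows did not overlap, and 37 and 38 h were the only neighbours out of order. The window means were -0.076 ± 0.059 and 0.081 ± 0.059 (SD, 6 embryos each), a difference of 0.157 (two-sided exact permutation test, p = 0.002165, the smallest that 6 against 6 allows, adjusted over 4 single values p = 0.008658). The position followed the hour inside each window as well: Pearson's r was 0.97 at 31 to 36 h (exact permutation p = 0.002778) and 0.98 at 37 to 42 h (exact permutation p = 0.005556), with Spearman's rho of 1 and 0.94 (exact permutation p = 0.002778 and 0.01667). Over all 12 embryos r was 0.99 and rho 0.99 (permutation p = 2e-05 for each, the smallest that the 100000 resamples allow), and r was 0.99 without the 2 embryos farthest from the median hour. Without the library labelled 48 h in the later reference the difference between windows was 0.175.

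**Figure D1:**
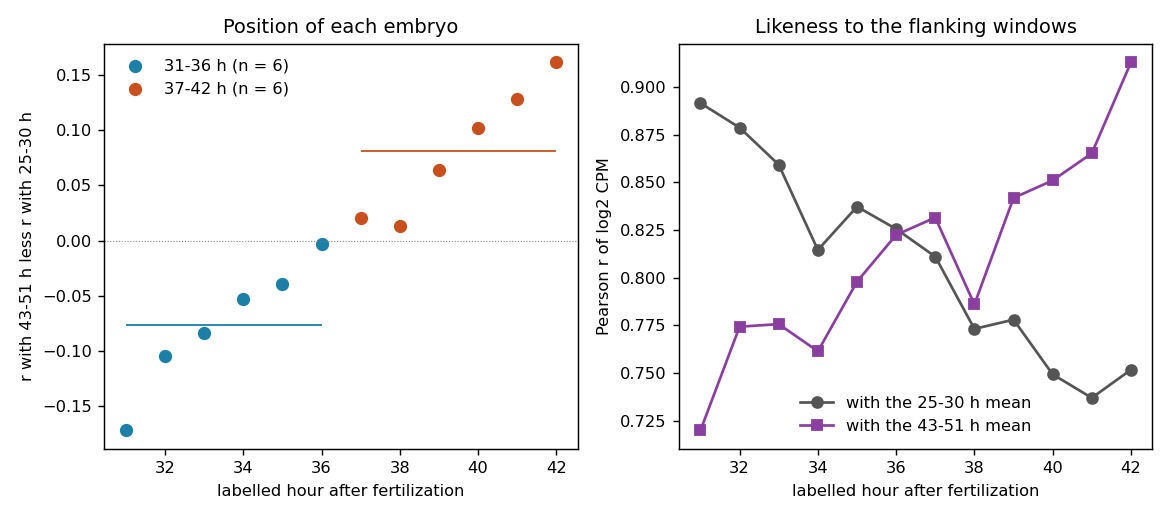
Left, the position of each of the 12 embryos (correlation with the 43-51 h mean less that with the 25-30 h mean, y axis) against its labelled hour (x axis), with a line at each window's mean. Right, the 2 correlations behind it. Positions run from -0.172 at 31 h to 0.161 at 42 h, and the windows do not overlap.

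Between 31 to 36 h and 37 to 42 h, rises outnumbered falls and were much the larger: 24 transcripts rose, 0.492% of the 4882 tested, and 8 fell, 0.164% (edgeR quasi-likelihood test, Benjamini-Hochberg adjusted p under 0.05). The median of all 4882 was a log2 change of -0.02. The rises ran from a log2 change of 1.28 to 5.73 with a median of 4.02, and the falls from -0.74 to -3.25 with a median of -1.13. Of the 24 rises 19 had all 6 later embryos above all 6 earlier ones, against 1.27% of all transcripts tested, and 6 of the 8 falls had all later embryos below all earlier ones, against 0.512%. These shares follow in part from the choice of transcripts, which used the same 12 embryos. In whole embryos, more cells of a type and more RNA per cell cannot be told apart. At an unadjusted p under 0.05 there were 663 transcripts, 356 of them higher later. The number of calls rested on single embryos: it was 4 without the embryo labelled 32 h, 6 without that of 41 h, 8 without that of 42 h, 10 without that of 40 h and 18 without that of 39 h. It rose to 74 without that of 36 h and 67 without that of 38 h. Rises were 75% of the calls, 87.1% with spike-in scaling and 89.2% in 1 fit over the first library series. Scaling to total counts put the median log2 change of all transcripts at -0.18 and gave 17 rises and 20 falls, 45.9% rises. No named transcript changed direction under any of the 24 alternatives.

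Calls were counted by level, and a difference in level between rises and falls was not tested. Of 1291 tested transcripts with a mean under 20 CPM none was called, of 2667 between 20 and 100 CPM 12 rose and 1 fell, and of 924 over 100 CPM 12 rose and 7 fell. Among the 397 tested transcripts without a count in any of the 4 embryos of 1 to 4 h, 6 rose (1.51%) and none fell. Of the 4485 with a count there, 18 rose (0.401%). These 4485 were most of the 4882 tested, so the presence of all 8 falls among them does not set the falls apart. A mean of at least 50 CPM at 1 to 4 h was found in 5 of the falls and 2 of the 24 rises. The share of all tested transcripts at that level was not counted. The 24 rises had a median level of 1.87 CPM at 1 to 4 h, 4.25 CPM at 25 to 30 h, 10.8 CPM at 31 to 36 h and 174 CPM at 37 to 42 h. The falls had medians of 268, 777, 714 and 343 CPM in the same windows.

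**Figure D2:**
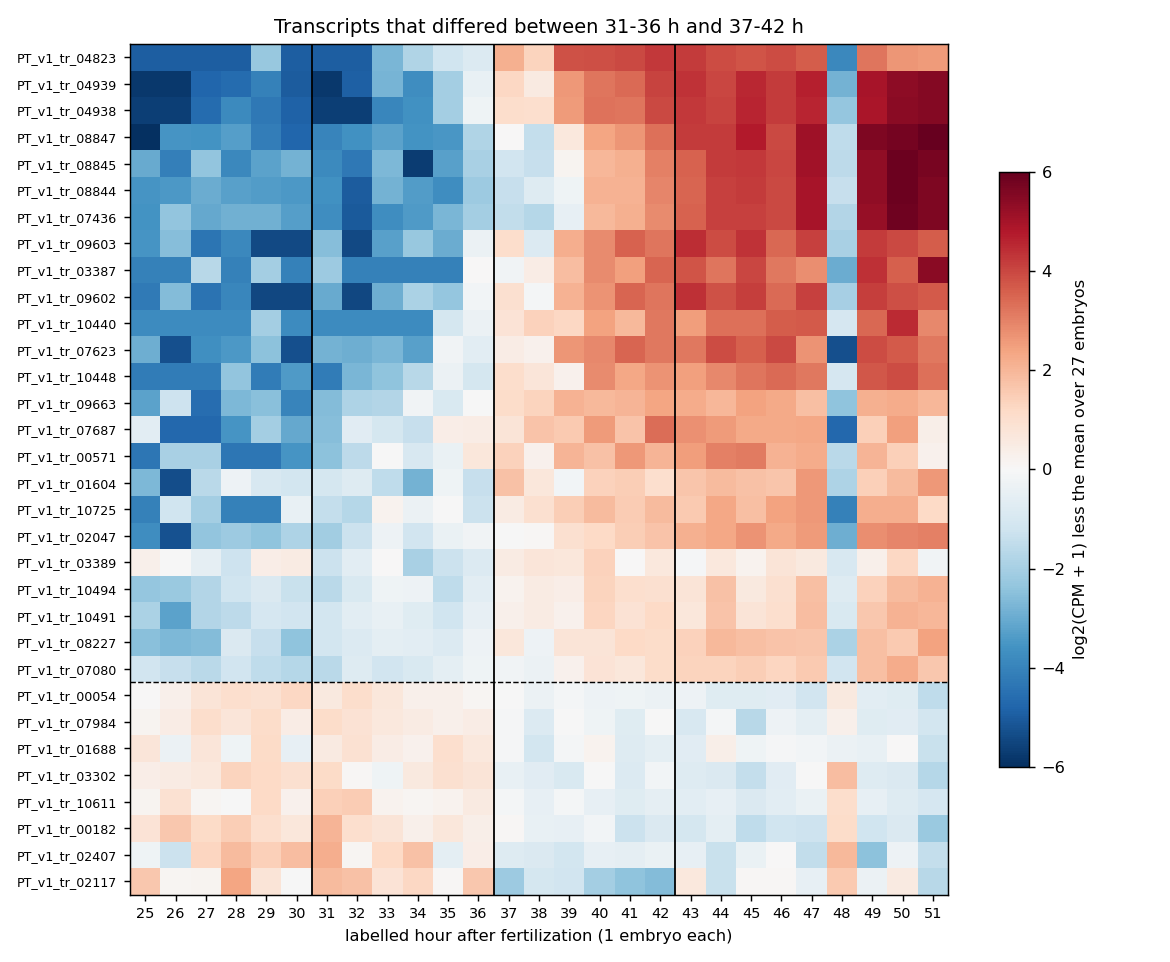
Levels of the 24 transcripts that rose (above the dashed line) and the 8 that fell (below it), as log2(CPM + 1) less each transcript's mean over 27 embryos, with 1 embryo per column from 25 to 51 h and lines between windows. The rises turn from blue to red between 36 and 40 h, and the column at 48 h looks like those of the first windows.

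The largest rise was that of PT_v1_tr_04823. From 31 to 36 h it stood at 0, 0, 3.53, 7.74, 12.2 and 16.5 CPM, and from 37 to 42 h at 132, 76.5, 426, 450, 472 and 575 CPM. Every later embryo was above every earlier one, and the level climbed within both windows apart from a dip at 38 h. The means were 6.65 ± 6.73 and 355 ± 202 CPM (SD, n = 6 each), a log2 change of 5.73 (SE 0.83, adjusted p = 0.01406, edgeR), or 53.1-fold. The call held whichever of the 12 embryos was left out, with adjusted p up to 0.04336, and ended only in limma voom among 24 alternatives (adjusted p = 0.1417). Over the 8 embryos of 43 to 51 h other than that labelled 48 h, its average of 364 CPM was close to that of 37 to 42 h, and the 48 h embryo held 1.12 CPM.

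PT_v1_tr_04938 and PT_v1_tr_04939, with neighbouring identifiers, rose as a pair. PT_v1_tr_04939 stood at 0, 0.829, 7.06, 3.10, 12.2 and 39.7 CPM from 31 to 36 h and at 130, 77.7, 334, 505, 571 and 903 CPM from 37 to 42 h. The embryo of 36 h lay far above the other 5 of its window, and no later embryo was as low. The log2 change was 5.27 (SE 0.95, adjusted p = 0.03362, edgeR) for PT_v1_tr_04939 and 5.19 (SE 1.01, adjusted p = 0.04422, edgeR) for PT_v1_tr_04938, whose means were 9.70 ± 16.2 and 368 ± 260 CPM (SD, n = 6 each). From 37 to 42 h the level of PT_v1_tr_04938 stayed between 0.790 and 1.28 times that of PT_v1_tr_04939 in every embryo. The 2 transcripts most like them over the 27 embryos of 25 to 51 h, PT_v1_tr_04936 (r = 0.996 with PT_v1_tr_04939) and PT_v1_tr_04937 (r = 0.990), had log2 changes of 5.17 and 4.72 that did not pass the test (adjusted p = 0.05097 and 0.05641, edgeR). Without sequences it was not tested whether these 4 share reads as copies or parts of a gene. The counts of calls take each identifier separately, here and for the other near neighbours in name, so they need not be counts of separate events. Both calls ended without any of the embryos of 32 to 35 and 39 to 42 h, and that of PT_v1_tr_04938 also without that of 31 h, with adjusted p up to 0.1139 and log2 changes of at least 4.87. Both also ended in limma voom (adjusted p = 0.1524 for PT_v1_tr_04938 and 0.1661 for PT_v1_tr_04939), without a filter on low counts (0.08692 and 0.06636) and with library totals as covariate (0.06706 and 0.05444), and that of PT_v1_tr_04938 with total counts (0.05751).

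PT_v1_tr_08844, PT_v1_tr_08845, PT_v1_tr_08847 and PT_v1_tr_07436 had similar levels hour by hour, apart from the higher level of PT_v1_tr_08847. PT_v1_tr_08847 stood at 4.45, 5.80, 8.24, 6.19, 6.64 and 23.3 CPM from 31 to 36 h, and at 85.0, 30.3, 131, 438, 537 and 840 CPM from 37 to 42 h. The embryos of 40 to 42 h stood far above those of 37 to 39 h, and the average at 43 to 51 h was higher still, 2964 CPM without the library labelled 48 h. Its log2 change was 5.18 (SE 0.79, adjusted p = 0.01872, edgeR), or 36.1-fold. The other 3 went from 4.74 to 5.65 CPM on average at 31 to 36 h to between 160.5 and 170.1 CPM at 37 to 42 h (log2 changes of 4.80 to 4.99, adjusted p from 0.01965 to 0.0292, edgeR). Each of the 4 was low but detected in the earliest embryos, with means of 6.04 to 7.74 CPM at 1 to 4 h. PT_v1_tr_08844, PT_v1_tr_08845 and PT_v1_tr_08847 are near neighbours in name, and whether they share reads was not tested. The calls of PT_v1_tr_08844 and PT_v1_tr_08847 ended without the embryo of 32 h (adjusted p = 0.05092 for both, edgeR). That of PT_v1_tr_08845 also ended without those of 31, 40 and 41 h (adjusted p up to 0.05988), and that of PT_v1_tr_07436 without any of those of 31 to 35 and 40 to 42 h (up to 0.06671). In limma voom none of the 4 passed (adjusted p from 0.2162 to 0.3548).

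A further group of 6 transcripts rose from a few CPM. PT_v1_tr_09602 and PT_v1_tr_09603, again neighbours in name, went from 11.1 ± 14.0 to 249.8 ± 179.7 CPM and from 9.15 ± 12.0 to 251 ± 182 CPM (SD, 6 embryos a window; log2 changes 4.46 and 4.73, SE 0.85 and 0.89, adjusted p = 0.03789 for both, edgeR). Both were highest at 41 h, with 498 and 499 CPM, and whether they share reads was not tested. PT_v1_tr_03387 had no count in 4 of the 6 earlier embryos and 15.5 CPM at 36 h, then reached 183 CPM at 42 h (log2 change 4.58, SE 0.97, adjusted p = 0.04953, edgeR). PT_v1_tr_10440 had no count from 31 to 34 h and stood at 5.53 and 9.69 CPM at 35 and 36 h, then at 22.9, 34.0, 30.5, 71.4, 50.3 and 120 CPM (log2 change 4.32, SE 0.82, adjusted p = 0.02221, edgeR). PT_v1_tr_07623 went from 12.1 ± 12.7 to 234 ± 157 CPM (SD over 6 embryos; log2 change 4.24, SE 0.73, adjusted p = 0.02221, edgeR), and PT_v1_tr_10448 from 4.95 ± 4.89 to 69.9 ± 47.2 CPM (n = 6, ± SD, with a log2 change of 3.80, SE 0.68, adjusted p = 0.01978, edgeR). The calls of PT_v1_tr_03387, PT_v1_tr_09602 and PT_v1_tr_09603 ended without any of the embryos of 31 to 35 and 39 to 42 h (adjusted p up to 0.1207), and those of the other 3 without that of 32, 40, 41 or 42 h (up to 0.08124). In limma voom only PT_v1_tr_10440 of the 6 passed (adjusted p = 0.04951), the others lying between 0.1417 and 0.2279. Without a filter on low counts those first 3 and PT_v1_tr_07623 lost the call (adjusted p from 0.05462 to 0.09482, edgeR). With library totals as covariate the first 3 and PT_v1_tr_10440 lost it (0.05444 to 0.06706).

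Among the smaller rises, only PT_v1_tr_09663 and PT_v1_tr_10491 kept their calls whichever embryo was left out. PT_v1_tr_09663 had the smallest p of all rises: it stood at 10.7, 19.1, 20.0, 61.9, 37.6 and 69.8 CPM from 31 to 36 h and at 155, 183, 301, 276, 295 and 375 CPM from 37 to 42 h. The windows were well apart, and the log2 change was 2.84 (SE 0.41, adjusted p = 0.007259, edgeR), or 7.17-fold. This call was kept in all 24 alternatives, with adjusted p up to 0.02922. PT_v1_tr_10491 and PT_v1_tr_10494 went from 61.6 ± 13.0 to 179.9 ± 56.7 CPM and from 59.3 ± 22.3 to 179 ± 54.0 CPM (SD, n = 6, and log2 changes of 1.54 and 1.59, adjusted p = 0.01341 and 0.02221, edgeR), and whether this pair shares reads was not tested. PT_v1_tr_08227 went from 44.9 ± 8.79 to 125 ± 38.7 CPM (SD over 6 embryos; log2 change 1.48, SE 0.27, adjusted p = 0.01978, edgeR), with the embryo of 38 h, at 59.5 CPM, only just above that of 36 h, at 59.1 CPM. PT_v1_tr_01604 was highest at 37 h, with 136 CPM, and went from 17.7 ± 9.66 to 89.2 ± 36.4 CPM (n = 6, ± SD, with a log2 change of 2.33, SE 0.40, adjusted p = 0.01872, edgeR). The calls of PT_v1_tr_08227, PT_v1_tr_10494 and PT_v1_tr_01604 each ended without the embryo of 32 or 41 h, the first 2 also without that of 42 h and PT_v1_tr_10494 also without that of 40 h (adjusted p up to 0.05988), whereas PT_v1_tr_10491 kept its call in every leave-out (up to 0.04336). In 1 fit over the first library series PT_v1_tr_10491, PT_v1_tr_10494, PT_v1_tr_08227 and PT_v1_tr_01604 all lost the call (adjusted p from 0.06202 to 0.2022, edgeR).

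The most abundant rise was that of PT_v1_tr_07080, which was present in every window from 1 to 51 h. It stood at 746, 1323, 1017, 1189, 1513 and 1901 CPM from 31 to 36 h and at 1923, 1781, 2661, 3971, 3607 and 4853 CPM from 37 to 42 h. The embryo of 38 h lay below that of 36 h, so the windows overlapped slightly, while the means were 1281 ± 401 and 3133 ± 1217 CPM (SD, n = 6, and a log2 change of 1.28, SE 0.25, adjusted p = 0.02221, edgeR). From 1 to 30 h its window means had stayed between 711 and 869.5 CPM. PT_v1_tr_02047 stood at 81.9 CPM at 31 h, 278 CPM at 33 h and 158 CPM at 34 h. After 34 h it was higher at each hour than at the one before, up to 1129.7 CPM at 42 h. Its means were 204 ± 89.0 and 711 ± 316 CPM (SD over 6 embryos, with a log2 change of 1.79, SE 0.34, adjusted p = 0.02221, edgeR). Both calls ended without the embryo of 32, 34, 40, 41 or 42 h, and that of PT_v1_tr_07080 also without that of 33 h (adjusted p up to 0.07393), with log2 changes of at least 1.16 and 1.63. The remaining rises, PT_v1_tr_07687, PT_v1_tr_00571, PT_v1_tr_10725 and PT_v1_tr_03389, had log2 changes of 2.69, 2.37, 2.14 and 1.62 and lost their calls without between 5 and 9 of the 12 embryos in turn, those of 32, 40, 41 and 42 h in all 4 cases (adjusted p up to 0.1139). In 1 fit over the first library series these 4 and PT_v1_tr_02047 also lost the call (adjusted p from 0.05321 to 0.2621, edgeR). PT_v1_tr_03389 differed from the others in its history: it had its highest window mean at 5 to 8 h, with 114 CPM, against 23.9 CPM at 31 to 36 h and 72.9 CPM at 37 to 42 h.

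**Figure D3:**
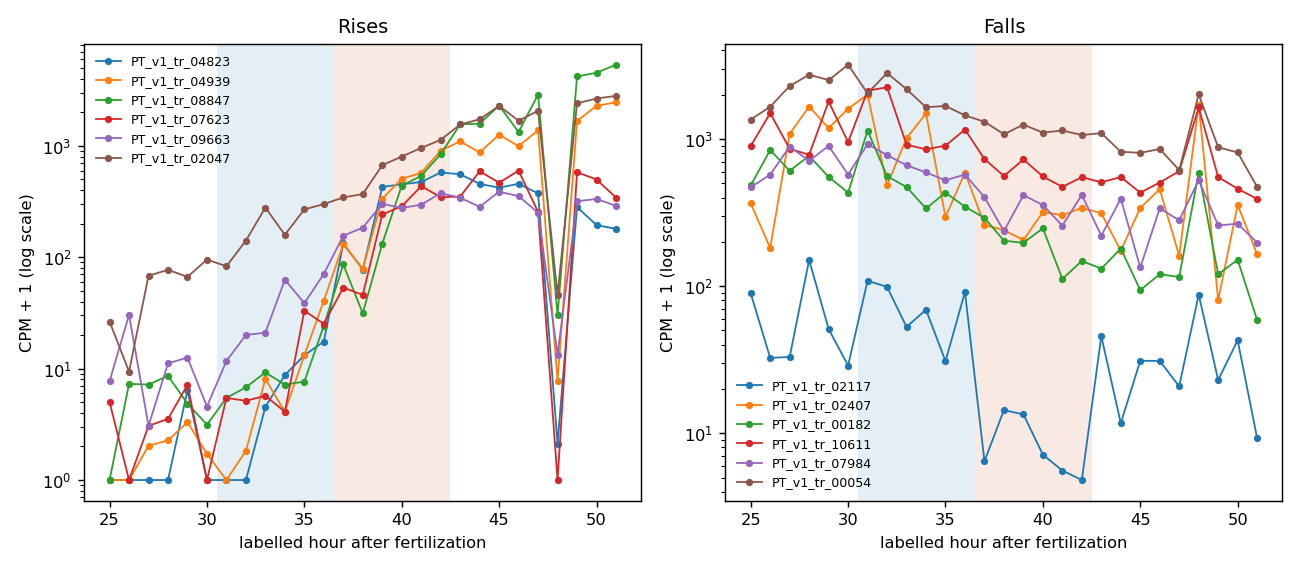
CPM + 1 on a log scale against labelled hour from 25 to 51 h for 6 rises (left) and 6 falls (right), with 31-36 h shaded blue and 37-42 h shaded orange, 1 point per embryo. PT_v1_tr_04823 goes from 0 CPM at 31 h to 575 CPM at 42 h, PT_v1_tr_02117 from 90.2 CPM at 36 h to 5.45 CPM at 37 h, and the embryo labelled 48 h departs from its neighbours in most lines.

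The sharpest fall was that of PT_v1_tr_02117. It stood at 108, 97.8, 51.8, 68.1, 29.9 and 90.2 CPM from 31 to 36 h and at 5.45, 13.3, 12.4, 6.15, 4.58 and 3.81 CPM from 37 to 42 h. All later embryos were below all earlier ones, with 90.2 CPM in the last earlier embryo and 5.45 CPM in the next. The means were 74.2 ± 29.8 and 7.63 ± 4.16 CPM (SD, n = 6 each), a log2 change of -3.25 (SE 0.44, adjusted p = 0.004952, edgeR), or 9.55-fold lower. This call was kept in all 24 alternatives, with adjusted p up to 0.0438. At 43 to 51 h the level was 25.9 CPM on average without the library labelled 48 h, with a range from 8.25 to 44.7 CPM over those 8 embryos. The difference between 37 to 42 h and 43 to 51 h was not tested.

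The other 7 falls were of abundant transcripts and smaller. PT_v1_tr_02407 went from 978 ± 659 to 277 ± 51.3 CPM (SD over 6 embryos; log2 change -1.83, SE 0.39, adjusted p = 0.0497, edgeR). Its earlier embryos ranged from 293 to 1999.6 CPM and its later ones only from 205 to 340 CPM, so the windows overlapped. PT_v1_tr_00182 stood at 1140, 558, 471, 336, 430 and 345 CPM from 31 to 36 h and at 290, 203, 196, 246, 111 and 147 CPM from 37 to 42 h (log2 change -1.43, SE 0.30, adjusted p = 0.03789, edgeR). Its means in the 6 windows from 1 to 30 h had been 354 to 613 CPM. PT_v1_tr_10611, PT_v1_tr_07984 and PT_v1_tr_00054 fell without overlap from 1365 ± 646 to 598 ± 105 CPM, from 674 ± 149 to 346 ± 81.1 CPM and from 1965 ± 493 to 1157 ± 101 CPM (n = 6, ± SD, with log2 changes of -1.16, -0.96 and -0.74, adjusted p = 0.03789, 0.02695 and 0.04279, edgeR). PT_v1_tr_01688 and PT_v1_tr_03302 had log2 changes of -0.99 and -1.10 (adjusted p = 0.0439 and 0.04324, edgeR). The calls of these 7 ended without 6 to 11 of the 12 embryos in turn, always including those of 31, 32, 41 and 42 h (adjusted p up to 0.1207), and 5 of the 7 ended once library totals entered as covariate (adjusted p from 0.05444 to 0.08261, edgeR). Spike-in scaling also ended 5 of the 7 (adjusted p from 0.05052 to 0.1253, edgeR), with PT_v1_tr_02407 and PT_v1_tr_03302 kept. In 1 fit over the first library series 6 of the 7 lost the call, PT_v1_tr_00182 being the exception, with an adjusted p of up to 0.4935 for PT_v1_tr_10611.

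More transcripts passed for a linear trend over the hours than for a difference between windows. Such a trend does not tell a steady change from a step, and its calls held 23 of the 24 rises and 7 of the 8 falls between windows. With the hour as a linear term in the same 12 embryos, 128 of 4882 transcripts rose (2.62%) and 57 fell (1.17%), 3.79% together (edgeR quasi-likelihood test, adjusted p under 0.05), and 822 had an unadjusted p under 0.05. The slopes of the rises ran from 0.08 to 0.97 log2 units per hour with a median of 0.31, and those of the falls from -0.08 to -0.46 with a median of -0.19. Leaving out 1 embryo gave between 115 and 219 calls, with 115 without that of 31 h and 119 without that of 42 h, each over 1.5 times fewer. Of the 128 rises 79 were highest at 42 h, 32 at 41 h and 15 at 40 h, and of the 57 falls 43 were highest at 31 h and 10 at 32 h, directions that the choice of these transcripts fixes. The 128 together took 1.21% of transcript counts at 31 h, 3.12% at 36 h and 8.29% at 42 h. The 57 falls together took 4.77%, 2.54% and 1.50% at the same hours. The embryo of 38 h was low in both sums, with 2.19% and 1.27%, and PT_v1_tr_02502 took 51.3% of its counts.

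The following 12 transcripts, 6 rises and 6 falls, were picked after their values were seen. They had a small p for the trend within their direction and did not pass between windows. PT_v1_tr_00003 stood at 10.7, 25.7, 42.4, 80.5, 93.0 and 311 CPM from 31 to 36 h and at 328, 265, 654, 1074, 1929 and 1641 CPM from 37 to 42 h, having been at 1.85 ± 1.78 CPM (SD, n = 6) at 25 to 30 h. It was higher at each hour than at the one before except at 38 and 42 h, with a slope of 0.65 log2 units per hour (SE 0.04, adjusted p = 4.591e-08, edgeR). PT_v1_tr_00004, its neighbour in name, ran beside it, from 8.02 CPM at 31 h to 1257 CPM at 42 h (slope 0.68, SE 0.06, adjusted p = 5.3e-07, edgeR). PT_v1_tr_07423 went from 7.13 CPM at 31 h to 1807 CPM at 42 h (slope 0.76, SE 0.05, adjusted p = 4.591e-08, edgeR). PT_v1_tr_08418 went from 13.4 to 2616 CPM (slope 0.71, SE 0.06, adjusted p = 1.016e-06, edgeR) and PT_v1_tr_08510 from 34.7 to 3178 CPM (slope 0.51, SE 0.04, adjusted p = 1.809e-07, edgeR). PT_v1_tr_04937, one of the set around PT_v1_tr_04939, had the steepest slope of these 6, 0.86 (SE 0.07, adjusted p = 1.809e-07, edgeR).

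Among the falls with a trend PT_v1_tr_05500 stood at 1943, 714, 430, 214, 278 and 138 CPM from 31 to 36 h and at 132, 116, 222, 66.5, 73.2 and 43.8 CPM from 37 to 42 h (slope -0.40, SE 0.05, adjusted p = 2.616e-05, edgeR). The largest differences lay before 37 h. Its means had been 27.2 CPM at 1 to 4 h and 596 CPM at 9 to 12 h, and it had been at 2234 ± 963 CPM (SD, n = 6) at 25 to 30 h. PT_v1_tr_01945 had a like history, with 14.0 CPM at 1 to 4 h, 2069.8 CPM at 13 to 17 h, 1201 CPM at 31 h and 128 CPM at 42 h (slope -0.32, SE 0.04, adjusted p = 0.0002024, edgeR). PT_v1_tr_00495, PT_v1_tr_03177 and PT_v1_tr_03179 went from 224, 297 and 137 CPM at 31 h to 10.2, 13.3 and 11.4 CPM at 42 h (slopes -0.43, -0.40 and -0.31, adjusted p = 0.0001875, 0.0001894 and 0.0006341, edgeR). PT_v1_tr_05763 differed from these 5 in being abundant from the start, with 1962 CPM at 1 to 4 h, and went from 1857 CPM at 31 h to 164 CPM at 42 h (slope -0.26, SE 0.04, adjusted p = 0.0001924, edgeR).

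**Figure D4:**
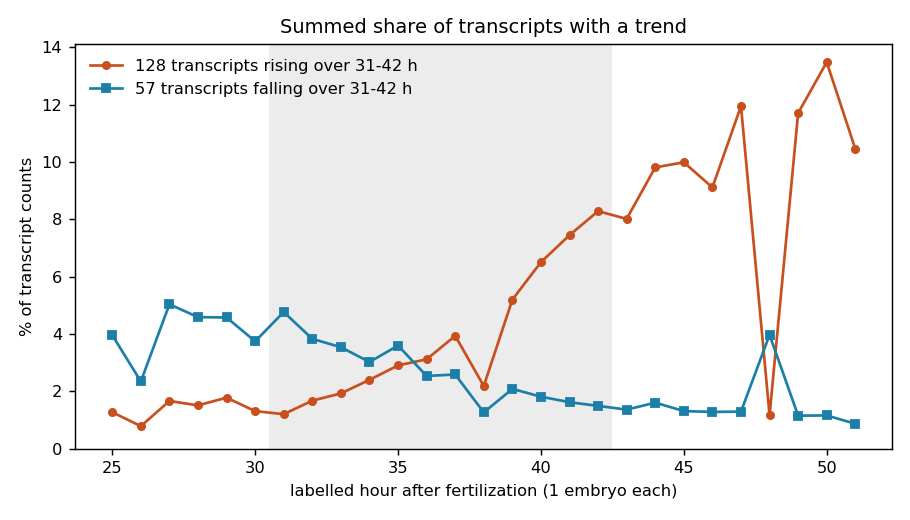
Summed share of transcript counts (y axis, percent) of the 128 transcripts that rose and the 57 that fell over 31 to 42 h (grey band), against the labelled hour of each of 27 embryos (x axis). The rising set goes from 1.21% at 31 h to 8.29% at 42 h and lies between 8.02% and 13.5% at 43 to 51 h, apart from 1.17% in the embryo labelled 48 h.

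Embryos outside the comparison showed where these transcripts came from and went. Between 25 to 30 h and 43 to 51 h, windows that share no embryo with the 12, 863 of 6798 transcripts rose (12.7%) and 368 fell (5.41%; edgeR, adjusted p under 0.05). Of the 24 rises 23 were among the 863 (95.8% of the rises, 2.67% of the 863), with a median log2 change of 7.34, and the exception was PT_v1_tr_03389 (log2 change 0.36, adjusted p = 0.507, edgeR). Of the 8 falls 3 were among the 368 (37.5% of the falls, 0.815% of the 368). Without the library labelled 48 h, 1083 rose (16.1% of 6717) and 665 fell (9.9%), and the counts were 23 of 24 rises and 7 of 8 falls, with only PT_v1_tr_01688 of the falls not called (log2 change -0.69, adjusted p = 0.07371, edgeR). Of the transcripts with a trend, 115 of 128 rises and 34 of 57 falls were called the same way, and 118 and 52 without that library. With all 9 later embryos, none of these transcripts was called in the opposite direction.

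The library labelled 48 h lay outside the range of the other 8 embryos of 43 to 51 h for most of the 32 calls: it was below all 8 in 24 of 24 rises and above all 8 in 7 of 8 falls. The exception was PT_v1_tr_01688, at 351 CPM against 177 to 564 CPM. PT_v1_tr_08847 stood at 29.2 CPM in it and between 1328 and 5340 CPM in the other 8 embryos of 43 to 51 h, and PT_v1_tr_04939 at 6.75 CPM against 872 to 2457 CPM. PT_v1_tr_02407, a fall, stood at 1714 CPM in it against 79.3 to 454 CPM in the other 8. The 128 transcripts with a rising trend took 1.17% of its counts, within the 0.789% to 1.78% of the 6 embryos of 25 to 30 h and below the 8.02% to 13.5% of the other 8. Its total of 768573 counts lay above the lowest total of its window, 725309. The cause was not tested.

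After 42 h most of the rises went further. Without the library labelled 48 h, 23 of the 24 had a higher mean at 43 to 51 h than at 37 to 42 h, the exception being PT_v1_tr_03389, and 21 of 24 with it. The means grew by different amounts: PT_v1_tr_07436 and PT_v1_tr_08847 went from 164 to 1746 CPM and from 344 to 2964 CPM without that library, whereas PT_v1_tr_04823 and PT_v1_tr_07687 went from 355 to 364 CPM and from 120 to 121 CPM. These means share the embryos of 37 to 42 h with the comparison above, and no test was made between them. Before 31 h, 21 of the 24 had a lower mean at 25 to 30 h than at 31 to 36 h. The 24 were chosen for being low at 31 to 36 h and high at 37 to 42 h. The same counts over all tested transcripts were not made, so how far these depart from them is not known.

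None of the other 3 single values passed the exact test. At an equal depth of 464284 counts, 8085 ± 344 transcripts were detected in the earlier window and 8226 ± 434 in the later (SD, n = 6 each; two-sided exact permutation test, p = 0.5455, adjusted over 4 single values p = 0.5455). Transcript counts for each count of the spike-ins, synthetic RNAs of the ERCC set, were 11.1 ± 1.14 and 12.6 ± 1.81 (SD, n = 6 each; exact permutation p = 0.1147, adjusted p = 0.2294). PT_v1_tr_02502, the most abundant transcript, took 27.1% ± 5.51 and 31.9% ± 9.60 of transcript counts (SD, n = 6 each; exact permutation p = 0.3723, adjusted p = 0.4964). In the later window its share lay between 25.3% and 29.3% in 5 embryos and was 51.3% in that of 38 h (95% Wilson interval 51.2% to 51.4%, counting error only), and without that embryo the difference between windows was 0.939 percentage points in place of 4.81. The 4 next most abundant transcripts, PT_v1_tr_04659, PT_v1_tr_01204, PT_v1_tr_02622 and PT_v1_tr_01563, had mean levels of 8783, 8745, 6373 and 5106 CPM over the 12 embryos and log2 changes of 0.40, 0.13, 0.29 and 0.18 that did not pass the test (adjusted p from 0.3415 to 0.8751, edgeR). The biological coefficient of variation between embryos was 0.529 at 31 to 36 h and 0.518 at 37 to 42 h, each fitted within its own window.

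Presence in all embryos of a window and absence from the other was rare. PT_v1_tr_01127 was the only transcript with no count at 31 to 36 h and counts in all 6 embryos of 37 to 42 h (54 counts in all, 10.1 ± 8.08 CPM, SD, n = 6). PT_v1_tr_00261 was the only one with the reverse pattern, with 106 counts at 31 to 36 h (17.3 ± 15.2 CPM, SD, n = 6) and none at 37 to 42 h. Both were named after their values were seen, and neither passed the filter on low counts, so neither was tested.

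Some transcripts were high in some embryos and near 0 in others without following the hour. The 5 with the largest SD of log2 CPM within windows, among 1692 transcripts of at least 50 CPM, had SDs of 2.66 to 3.57, against a median of 0.50. PT_v1_tr_10496 stood at 0.891, 0, 0, 283, 322 and 348 CPM from 31 to 36 h and at 82.8, 1.21, 337, 0, 146 and 0 CPM from 37 to 42 h. PT_v1_tr_07600 reached 5187 CPM at 36 h and had 165, 9.29, 37.3 and 42.3 CPM in the embryos of 33, 34, 39 and 41 h, while the other 8 had 1771 CPM or more. PT_v1_tr_05998 was low in the same 4 embryos, with 1.18, 15.5, 0 and 0 CPM against at least 128 CPM in the other 8. PT_v1_tr_07260 was at 170.7 CPM or more in the embryos of 31, 32, 36, 41 and 42 h and at 18.8 CPM or less in the other 7. PT_v1_tr_03348 had no count in the embryos of 31, 35 and 40 h, 9.69 CPM at 36 h and at least 63.1 CPM in the other 8. None passed the test between windows (log2 changes from -0.75 to 0.26, SE from 1.17 to 1.68, adjusted p from 0.9102 to 0.9797, edgeR). With standard errors above 1 log2 unit, even changes of several log2 units could have gone undetected in these 5.

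**Figure D5:**
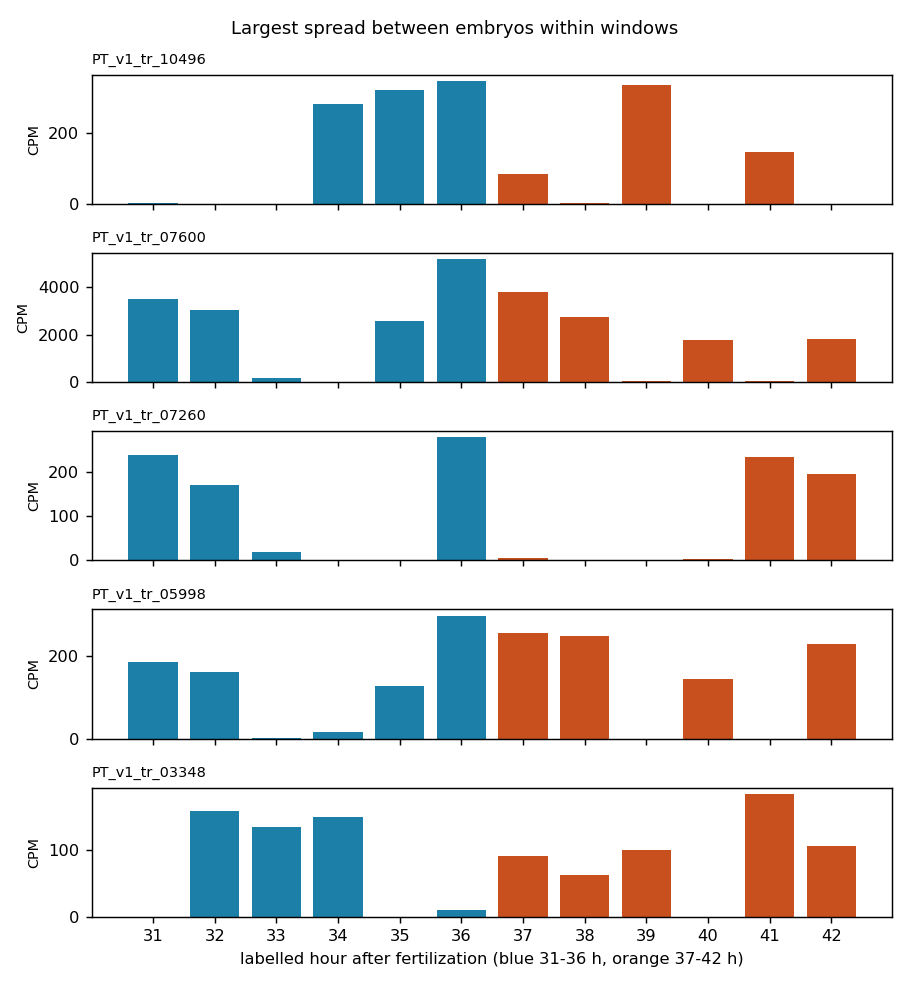
CPM (y axes, linear, from 0) in each of the 12 embryos by labelled hour (x axis) of the 5 transcripts with the largest spread within windows. Bars are absent or near 0 in some embryos of both windows, and PT_v1_tr_07600 and PT_v1_tr_05998 are low in the same embryos, those of 33, 34, 39 and 41 h.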

How the data were processed

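The deposited values are raw whole-number counts of each transcript in each embryo. The tools listed in the submitters' processing notes are HTSeq 0.5.4p3, Bowtie2 2.1.0 and CASAVA 1.8; their roles and settings and the reference are not given in the sources used here. No molecular identifiers are named, so counts are reads. Of the counts of the 12 embryos, 52.5% lay in 5 summary rows and 3.74% in 92 spike-ins, both kept out of library sizes and tests. Windows and the hour were tested with edgeR 4.0.16 (quasi-likelihood, robust, TMM, filterByExpr, R 4.3.3) on the embryos compared, adjusted over all transcripts tested; standard errors were derived as the size of the log2 change divided by the root of F. CPM levels use TMM over the first 50 embryos, log2 CPM a prior count of 2. Named were the 10 largest rises and falls with 20 CPM in the higher window, the 5 most abundant calls and the 5 next smallest p; the rest of the 32 calls are given too. Alternatives were DESeq2 1.42.0, limma 3.58.1 voom, other scalings, filters and covariates, and embryos left out. Members, lists and tests were chosen with earlier results of these data known. Each fit was tested on simulated data. P-values set a difference or slope against the spread between these embryos, which inside a window also holds the progress of development. Other tools were Python 3.11.15, numpy 2.4.6, pandas 2.3.3, scipy 1.17.1 and matplotlib 3.10.9.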

Additional observations from a re-analysis of the deposited data

Results flagged for a closer look

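A value was singled out where 1 embryo lay far from the other 5 of its window (gap over range above 0.625), as in 9 of 72 groups of values. Independent values of a normal distribution pass that limit in about 1 in 20 groups. Embryos of differing hours, and transcripts that were chosen for their change and partly run together, are not such values. The 9 of 72 can therefore not be set against that rate. The embryo of 36 h gave 6 of the 9, all for transcripts that rose: PT_v1_tr_04939 at 39.7 CPM, PT_v1_tr_04938 at 41.7, PT_v1_tr_08847 at 23.3, PT_v1_tr_09603 at 33.0, PT_v1_tr_03387 at 15.5 and PT_v1_tr_09602 at 38.8 CPM, against at most 12.2, 11.1, 8.24, 7.74, 2.67 and 10.8 CPM in the other 5. It is the oldest embryo of that window. PT_v1_tr_00182 stood at 1140 CPM at 31 h, against 336 to 558 CPM in the other 5. At equal depth 7416 transcripts were detected in the embryo of 34 h, against 8115 to 8416 in the others of its window; it had the lowest total, so no counts were removed from it. PT_v1_tr_02502 took 51.3% of counts in the embryo of 38 h, against 25.3% to 29.3%.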

How the results depend on the processing

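The count of 32 calls between windows ran from 4 (without 32 h) to 74 (without 36 h) when 1 embryo was left out, with 67, 10, 6 and 8 without 38, 40, 41 and 42 h. It was 65 in 1 fit over the first library series, 206 with the DESeq2 Wald test, 106 with the hour within the window as a covariate, 81 with hours beside the border left out and 18 once the library total entered as covariate. Of the 32, these fits called 17, 32, 32, 30 and 16. With the other scalings, filters, voom or PT_v1_tr_02502 left out, counts lay between 28 and 45, but voom shared only 18 of the 32, and no filter and total counts 23 each. Rises made up 75% of the calls, but 87.1% with spike-in scaling, 89.2% in 1 fit over the first library series and 45.9% with total counts. In 768 refits of named transcripts none changed direction, and 251 lost the call. The trend gave 300 calls with no filter in place of 185, and 115 (without 31 h) to 219 with 1 embryo left out, and 119 without 42 h. For 43 to 51 h against 25 to 30 h, 1231 calls became 1916 with the DESeq2 Wald test; rises made up 70.1%, or 88.3% with spike-in scaling. Detection at equal depth turned from a gain of 141 to a loss, -93.6, with at least 5 counts required, and ran from -5.98 (without 42 h) to 262 with 1 embryo left out; none passed. The causes were not tested. No paired analysis was possible because the labels give no replicate numbers. None of the transcripts under 20 CPM was called, and 1 count was worth up to 2.15 CPM before TMM scaling.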
